A study of Rattus norvegicus with 12 samples.

Results

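The expression of 38 genes of the cell cycle was followed in the left ventricle (LV) of rats 1 day after myocardial infarction, with and without treatment by an illuminated algal patch. The genes were chosen by name and fall into 4 roles, with 10 replication genes, 16 mitosis genes, 10 cyclin and cyclin-dependent kinase (CDK) genes and 2 transcription factors. Of these 38 genes, 36 had a row among the 34599 rows of the count table and all 36 passed the filter on low counts. E2f1 and Ccnb2 were not analysed here.

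Before a cell divides it copies its DNA once, in S phase, and then separates the copies in mitosis. D-type cyclins with CDK4 or CDK6 start the process by releasing E2F transcription factors, which switch on replication genes, and cyclin E and cyclin A with CDK2 drive S phase. Cyclin B with CDK1 starts mitosis, for which a later set of genes is switched on by the MuvB proteins with MYBL2 and FOXM1. In cells that do not divide, the same MuvB proteins form the DREAM complex, which holds these genes off. Adult cardiomyocytes rarely divide, and the dividing cells of an infarcted heart are known to be mostly other cell types.

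LV tissue came from male SD rats in 3 groups of 4. MI rats were infarcted by ligation of a coronary artery (the left anterior descending) and not treated, while Sham rats had the chest opened only. iCarP+/Light+ rats had the same ligation, then Chlorella (a photosynthetic green alga) in the infarcted wall and the iCarP patch on the heart, and were illuminated. The alga, the patch and the light therefore cannot be told apart in these rats. Every sample was whole tissue, labelled as left ventricle and described as taken from the infarct region of the heart, at day 1. No age and no sequencing batch of these rats is given in the labels. Samples are named below by group and by the rat number in their label, and rats that share a number in different groups are different animals.

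Total counts per rat were between 14064414 and 17136958, so that 3 counts corresponded to 0.175 to 0.213 CPM (counts divided by the library total and multiplied by a fixed factor of 1e+06). Levels below are CPM of the library scaled by TMM (a scaling that assumes that most genes do not change), and group values are means ± SD over 4 rats. Differences are log2 fold changes from edgeR's quasi-likelihood test with Benjamini-Hochberg adjustment over 15101 genes, called at an adjusted p below 0.05. Single genes also have a two-sided p from an exact permutation test, which cannot be below 0.0286 with 4 rats against 4. Mitochondrial genes took 22.8% to 28.9% of the counts in Sham and 7.14% to 14.2% in the other rats. When libraries were scaled by total counts alone, the median log2 fold change of all genes was 0.52 for MI against Sham and -0.25 for iCarP+/Light+ against MI, against -0.06 and 0.01 with TMM. Changes with that scaling are read relative to those medians. Sham rat 1 had the lowest level of its group in all 10 replication genes and in 15 of the 16 mitosis genes.

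The upstream sequences of 7 members are shown because they hold short motifs known from replication and mitosis genes, except that Ccnd3 holds only a CCAAT box. They are the 150 bases before the gene start in RefSeq on the assembly GRCr8, read 5′ to 3′ on the strand of the gene, and the last base is position -1. Capitals mark TTTCCCGC, TTTGGCGC, TTCCCGCC and TTTGGCGG (forms of the E2F site), TTTGAA and TTCGAA (forms of the CHR element, bound by MuvB) and CCAAT (the NF-Y box), each on either strand. TTTCCCGC and TTCCCGCC can overlap by 7 letters.
Mcm5 (replication), chr19:13488663-13488812, + strand: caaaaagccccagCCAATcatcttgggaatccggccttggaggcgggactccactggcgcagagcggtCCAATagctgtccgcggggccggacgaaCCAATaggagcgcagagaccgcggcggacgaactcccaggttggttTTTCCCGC
Mcm6 (replication), chr13:42404353-42404502, - strand: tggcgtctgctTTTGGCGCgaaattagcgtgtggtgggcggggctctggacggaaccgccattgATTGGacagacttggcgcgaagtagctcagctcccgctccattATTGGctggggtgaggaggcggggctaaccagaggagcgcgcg
Cdk1 (cyclin and CDK), chr20:19265143-19265292, + strand: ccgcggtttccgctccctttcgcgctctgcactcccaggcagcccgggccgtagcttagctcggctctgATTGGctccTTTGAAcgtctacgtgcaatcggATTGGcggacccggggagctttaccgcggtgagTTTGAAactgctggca
Top2a (mitosis), chr10:84473094-84473243, - strand: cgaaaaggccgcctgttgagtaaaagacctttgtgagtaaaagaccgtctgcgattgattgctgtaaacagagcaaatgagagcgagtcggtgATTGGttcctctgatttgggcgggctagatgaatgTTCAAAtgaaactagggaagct
Cdc20 (mitosis), chr5:137255800-137255949, - strand: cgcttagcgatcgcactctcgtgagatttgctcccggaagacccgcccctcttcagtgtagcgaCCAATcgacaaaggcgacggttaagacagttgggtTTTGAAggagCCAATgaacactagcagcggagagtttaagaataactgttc
Birc5 (mitosis), chr10:103571996-103572145, + strand: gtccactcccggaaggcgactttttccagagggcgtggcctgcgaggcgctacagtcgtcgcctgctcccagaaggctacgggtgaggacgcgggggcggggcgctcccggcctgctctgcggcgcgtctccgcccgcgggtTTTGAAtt
Ccnd3 (cyclin and CDK), chr9:20897876-20898025, - strand: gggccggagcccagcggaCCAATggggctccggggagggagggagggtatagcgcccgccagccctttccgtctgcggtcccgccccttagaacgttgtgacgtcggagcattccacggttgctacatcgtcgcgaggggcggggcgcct
Mcm5 holds an E2F form that ends at position -1, and Mcm6 holds one from -139 to -132. Cdc20 holds a CHR form from -51 to -46 between CCAAT boxes, Top2a holds one from -22 to -17 on the opposite strand, and Cdk1 holds one from -72 to -67 and another from -16 to -11. Ccnd3 holds neither an E2F form nor a CHR form in the 150 bases shown.

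Of the 36 measured members, 26 matched an entry of 300 bases (250 before to 50 after the start). Aurkb, Ccna2, Ccnd1, Ccnd2, Ccne2, Foxm1, Mcm4, Rrm2, Tpx2 and Ube2c had none. An E2F form was present in 6 of 8 replication genes (Mcm3, Mcm5, Mcm6, Mcm7, Rrm1 and Tyms), in 1 of 13 mitosis genes (Kif23) and in 0 of 5 cyclin and CDK genes, against 3.33% of all 33469 entries. A CHR form was present in 3 of 8 replication genes and in 8 of 13 mitosis genes (Birc5, Bub1b, Cdc20, Cenpf, Kif23, Mki67, Plk1 and Top2a) and in 1 of 5 cyclin and CDK genes (Cdk1), against 19.7% of all entries. A CCAAT box was present in 20 of the 26 members, against 37.5% of all entries. A CHR form together with a CCAAT box stood in 7 of 13 mitosis genes and in 2 of 8 replication genes, against 7.95% of all entries. A match of letters is a description of these windows and does not show that a factor binds there.

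Infarction was followed by higher levels of nearly all replication and mitosis genes. Of the 36 members, 32 rose from Sham to MI, 2 fell (Ccnd2 and Ccnd3), and Tyms and Ccnd1 did not pass the test. Among all 15101 genes tested, 30.2% rose and 33.6% fell. The median log2 fold change of the members was 1.34, against -0.06 for all genes. In 32 members the lowest MI rat exceeded the highest Sham rat, as in 27.6% of all genes, and in 2 members the order was reversed, as in 31.4% of all genes.

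**Figure D1:**
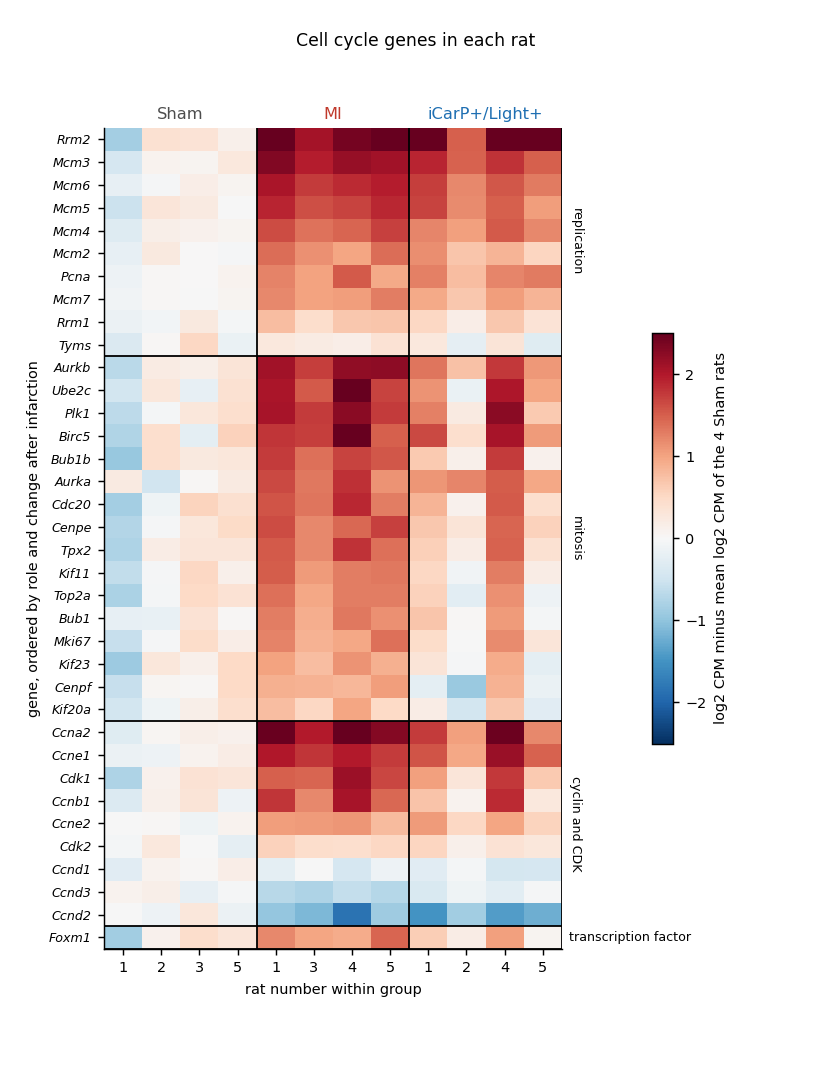
Level of each of the 36 members (rows, by role) in each of the 12 rats (columns), as log2 CPM minus the mean log2 CPM of the 4 Sham rats; red is above and blue below that mean, and colours reach their limit at 2.5. Nearly all replication and mitosis rows are red in the 4 MI rats, the mitosis rows are paler in iCarP+/Light+ rats 1, 2 and 5 than in rat 4, and Ccnd2 and Ccnd3 are blue in MI.

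Replication genes rose in 9 of 10 cases, with a median log2 fold change of 1.38. Mcm2 to Mcm7 encode the 6 subunits of the helicase that opens the DNA at replication forks, and all of them rose. Mcm6, listed as ENSRNOG00000003703 on chromosome 13 from 45042882 to 45068077 (rn6), was measured at 22.5, 25.3, 29.1 and 27.2 CPM in Sham rats 1, 2, 3 and 5 and at 106, 87.1, 94.2 and 101 CPM in MI rats 1, 3, 4 and 5. The lowest MI rat was thus well above the highest Sham rat, and the log2 fold change of Mcm6 was 1.90 (SE 0.13, adjusted p = 1.75e-07, edgeR). Mcm3 (ENSRNOG00000012543, chromosome 9 from 26914057 to 26932201) rose from 18.0 ± 3.32 to 78.3 ± 8.10 CPM (SD, n = 4 each), a log2 fold change of 2.12. The other 4 subunits rose by 1.14 (Mcm7) to 1.74 (Mcm5) on the log2 scale. Mcm7 contains the miRNA genes Mir25, Mir106b and Mir93, which held 16, 7 and 2 counts over all rats against 11987 for Mcm7.

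Enzymes that supply deoxynucleotides differed in size of change. Rrm2, the small subunit of ribonucleotide reductase that limits its activity in S phase, was at 2.17, 5.12, 4.93 and 4.28 CPM in Sham rats 1, 2, 3 and 5 and at 28.2, 16.5, 20.5 and 29.0 CPM in MI rats 1, 3, 4 and 5. Its log2 fold change of 2.51 (SE 0.35, adjusted p = 3.34e-05, edgeR) was the highest of the 36 members. Rrm1, the large subunit of the same enzyme, was at 54.7 ± 6.90 CPM in Sham and at 85.1 ± 7.69 CPM in MI (SD, n = 4 each), a log2 fold change of 0.64. Tyms, which makes thymidylate, was at 13.2 ± 3.67 CPM in Sham and 15.3 ± 0.898 CPM in MI (SD, n = 4 each), with groups that overlapped and an adjusted p of 0.366 (edgeR). With total counts alone its log2 fold change was 0.80 (adjusted p = 0.00430, edgeR), which lay 0.28 above the median of all genes. Pcna, the sliding clamp of DNA polymerase that also serves DNA repair, rose from 72.8 ± 4.39 to 166 ± 31.7 CPM (SD, n = 4 each), a log2 fold change of 1.19.

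All 16 mitosis genes rose, with log2 fold changes between 0.67 (Kif20a) and 2.03 (Aurkb) and a median of 1.43. Aurkb (ENSRNOG00000005659, chromosome 10 from 55626741 to 55634991), the kinase of the chromosomal passenger complex, was at 3.83, 7.10, 6.83 and 7.67 CPM in Sham rats 1, 2, 3 and 5 and at 26.4, 20.3, 28.5 and 28.9 CPM in MI rats 1, 3, 4 and 5. The groups did not overlap (exact permutation test, p = 0.0286), and the adjusted p was 1.27e-05 (edgeR). Ube2c, the ubiquitin-conjugating enzyme of the anaphase-promoting complex, rose by 1.97. Plk1, a kinase that acts from mitotic entry to cytokinesis, rose by 1.92, and Birc5, which encodes survivin, rose by 1.83 on the log2 scale.

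Mki67 and Top2a encode the Ki-67 antigen, a mark of dividing cells, and the DNA topoisomerase of chromosome condensation. Mki67 was at 30.4 ± 8.55 CPM in Sham and 64.5 ± 10.6 CPM in MI, and Top2a at 28.9 ± 10.2 and 64.3 ± 7.54 CPM (SD, n = 4 each). Their log2 fold changes were 1.09 and 1.16. The 3 smallest rises of this role, of Kif20a, Cenpf and Kif23, were 0.67, 0.86 and 0.87. The calls of Cenpf and Kif20a were each lost (edgeR adjusted p between 0.0551 and 0.0928) without 1 of 4 rats in turn. These rats were MI rat 5 and Sham rats 1, 2 and 3 for Cenpf, and MI rats 1 and 4 and Sham rats 1 and 2 for Kif20a. Without Sham rat 1 the log2 fold change was 0.71 for Cenpf and 0.54 for Kif20a. Kif20a overlaps Cdc23 on the opposite strand, and Ccna2 overlaps Exosc9 and Ccne2 overlaps Ints8 in the same way. No strand setting of the counting is given in the sources used here, so the values of these 3 members may hold reads of the partner gene.

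**Figure D2:**
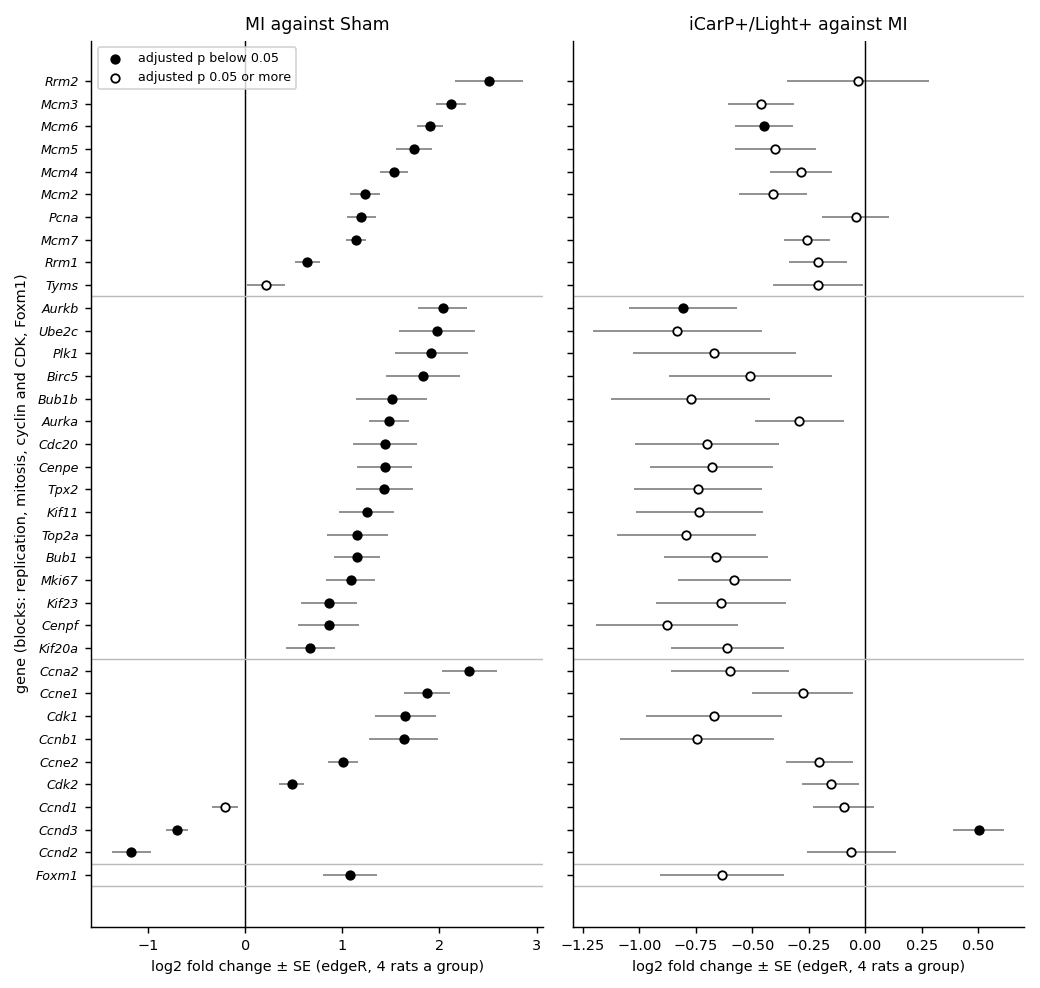
Log2 fold change ± SE of the 36 members in MI against Sham (left) and iCarP+/Light+ against MI (right), from edgeR on 4 rats a group; filled circles have an adjusted p below 0.05 and horizontal lines divide the roles. On the left 32 members lie above 0 with filled circles and Ccnd2 and Ccnd3 below it, and on the right 35 of 36 lie below 0, of which Mcm6 and Aurkb are filled, and Ccnd3 lies above it.

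Cyclins split by the phase they serve. Ccna2 (cyclin A2, of S phase and mitosis) rose from 6.04 ± 0.813 to 29.9 ± 4.60 CPM (SD, n = 4 each), a log2 fold change of 2.31. Ccne1 and Ccne2 (E cyclins, of S phase entry) rose by 1.87 and 1.01. Ccnb1 (cyclin B1, of mitosis) rose by 1.63, Cdk1 by 1.65 and Cdk2 by 0.48 on the log2 scale.

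D cyclins, which act earlier and link growth signals to the cycle, did not rise. Ccnd2 (ENSRNOG00000057710, chromosome 4 from 159674885 to 159697207) was at 96.4, 88.5, 118 and 88.2 CPM in Sham rats 1, 2, 3 and 5 and at 49.5, 44.4, 27.1 and 52.5 CPM in MI rats 1, 3, 4 and 5. Its log2 fold change was -1.17 (SE 0.20, adjusted p = 0.000195, edgeR), and no MI rat reached the lowest Sham rat. Ccnd3 (ENSRNOG00000050258, chromosome 9 from 15404822 to 15410943) fell from 191 ± 20.6 to 118 ± 6.15 CPM (SD, n = 4 each), a log2 fold change of -0.70. Ccnd1 was at 218 ± 28.1 and 189 ± 23.1 CPM (SD, n = 4 each) with overlapping groups and an adjusted p of 0.203 (edgeR). With total counts alone the log2 fold change of Ccnd3 was -0.13 and no longer passed the test, and that of Ccnd1 was 0.38 (adjusted p = 0.0317, edgeR), which is 0.14 below the median of all genes under that scaling.

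Per kilobase of listed gene length, the D cyclins and Pcna were the 4 most abundant members in Sham and in iCarP+/Light+, whereas in MI Ccnd2 stood below Mcm6 and Mcm7. In Sham the levels were 100.1 CPM per kb for Ccnd3, 69.2 for Ccnd2, 62.7 for Pcna and 56.3 for Ccnd1. In MI Pcna led with 144 CPM per kb, followed by Ccnd3 with 61.5, Ccnd1 with 48.9, Mcm6 with 33.3, Mcm7 with 31.6 and Ccnd2 with 30.7, and the SDs of the last 3 overlapped. The lowest levels in MI were 1.68 CPM per kb for Cenpf and 2.05 for Cenpe.

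The transcription factor Foxm1, which switches on mitosis genes, rose from 6.13 ± 2.07 to 12.9 ± 2.27 CPM (SD, n = 4 each), a log2 fold change of 1.08. Other cell cycle genes were taken from a longer list, to be read against the 30.2% of all genes that rose and the 33.6% that fell. Of 35 other replication genes 33 rose and 1 (Pola2, -1.47) fell, with Orc1, Uhrf1 and Cdc6 rising by 2.52, 2.20 and 1.98. Of 47 other mitosis genes 38 rose and 0 fell, led by Cdca5, Tacc3 and Ncapg with 2.08, 1.99 and 1.96. Of 14 other transcription factors of the cycle 8 rose and 3 fell, and Mybl2, the activator of the mitosis program, rose by 2.91 from 2.96 to 4.48 CPM in Sham rats to 25.2 to 35.3 CPM in MI rats. E2f2 and E2f8, an activator and a repressor of the E2F family, rose by 1.73 and 1.54.

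Illuminated patch treatment was then compared with untreated infarction. In iCarP+/Light+ against MI, 35 of the 36 members had a log2 fold change below 0, against 48.5% of all genes. Few of them passed the test. Mcm6 and Aurkb fell, Ccnd3 rose, and 33 members did not pass, while among all genes 2.01% fell and 11.6% rose. At an unadjusted p below 0.05, 22 of 36 members were lower, against 7.61% of all genes. In 2 members (Mcm3 and Mcm6) the highest treated rat was under the lowest MI rat, as in 4.37% of all genes. The median log2 fold change was -0.54 for the members and 0.01 for all genes.

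Mcm6 was measured at 85.5, 59.2, 75.9 and 63.8 CPM in iCarP+/Light+ rats 1, 2, 4 and 5, each below the lowest MI rat (87.1 CPM). Its log2 fold change was -0.45 (SE 0.13, adjusted p = 0.0340, edgeR; exact permutation test, p = 0.0286). The call was lost (edgeR adjusted p between 0.0528 and 0.108) without MI rat 1 or 5 or without iCarP+/Light+ rat 2, 4 or 5, and also with a fit of the MI and iCarP+/Light+ rats only (-0.49, adjusted p = 0.0585, edgeR). Mcm3, at 66.2, 49.3, 61.9 and 50.01 CPM in the same rats, also lay below every MI rat, with a log2 fold change of -0.46 and an adjusted p of 0.0547 (edgeR). It passed in a fit of the MI and iCarP+/Light+ rats only (adjusted p = 0.0485, edgeR), with DESeq2 (adjusted p = 0.0103) and with limma-voom (adjusted p = 0.0367). Pcna and Rrm2 had values near 0, with log2 fold changes of -0.04 (SE 0.15) and -0.03 (SE 0.32). Over the 10 replication genes the median was -0.27.

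The median log2 fold change of the 16 mitosis genes was -0.69, and all of their values were below 0, from -0.29 for Aurka to -0.88 for Cenpf. Aurkb was at 15.5, 10.2, 20.9 and 13.0 CPM in iCarP+/Light+ rats 1, 2, 4 and 5. Rat 4 overlapped the lowest MI rat (20.3 CPM), and the other 3 rats lay below it. The log2 fold change of Aurkb was -0.81 (SE 0.24, adjusted p = 0.0395, edgeR; exact permutation test, p = 0.0571), and the call was lost (edgeR adjusted p between 0.0520 and 0.113) without MI rat 1, 4 or 5, iCarP+/Light+ rat 1, 2 or 5 or Sham rat 3. Top2a was at 40.8, 22.8, 60.0 and 24.9 CPM in the same rats, against 71.1, 53.5, 66.2 and 66.5 CPM in MI rats 1, 3, 4 and 5, with a log2 fold change of -0.79 (SE 0.31, adjusted p = 0.117, edgeR).

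**Figure D3:**
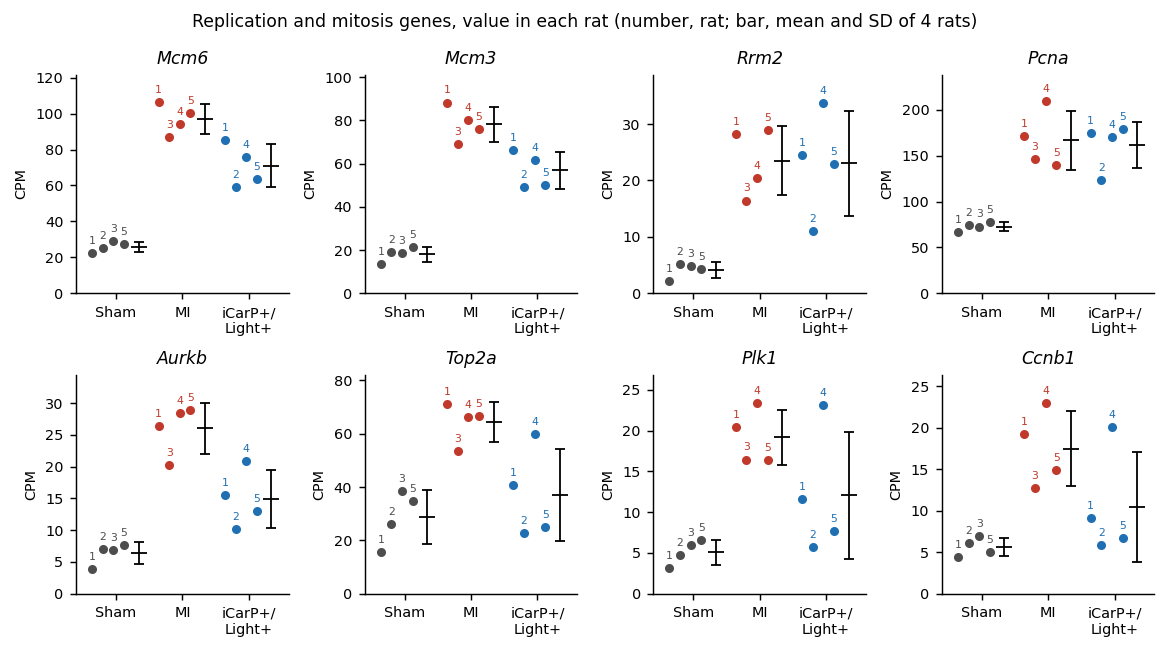
Level in CPM (y axis, from 0) of 4 replication genes (top row), 3 mitosis genes and Ccnb1 (bottom row) in each rat, numbered as labelled, with the mean and SD of 4 rats beside each group. In the bottom row iCarP+/Light+ rat 4 stands above rats 1, 2 and 5 of its group and within the range of MI, whereas Mcm3 and Mcm6 lie below MI in all 4 rats.

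One rat of the treated group carried much of this spread. In iCarP+/Light+ rat 4 all 16 mitosis genes were at the highest level of the group and within the range of the 4 MI rats. Rats 1, 2 and 5 were below the MI range for 15, 15 and 16 of the 16 mitosis genes. Rat 2 was at or below the highest Sham rat for 14 of these genes, rat 5 for 9 and rat 1 for 4. Plk1 shows the pattern, with 11.6, 5.74, 23.2 and 7.74 CPM in iCarP+/Light+ rats 1, 2, 4 and 5, against 3.11 to 6.56 CPM in Sham and 16.4 to 23.4 CPM in MI rats. Ccnb1 was at 9.08, 5.92, 20.1 and 6.68 CPM in the same 4 rats, and Cdk1 at 20.4, 12.3, 33.9 and 15.8 CPM.

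Values of the remaining mitosis genes are given for iCarP+/Light+ rats 1, 2, 4 and 5 in that order, with the range of MI rats after them. Bub1b, a kinase-like protein of the spindle checkpoint, was at 8.33, 5.80, 17.7 and 5.70 CPM (13.8 to 17.7 CPM in MI). Its partner kinase Bub1 was at 16.3, 10.2, 20.9 and 9.71 CPM (18.9 to 25.1 CPM in MI). Cdc20, the activator of the anaphase-promoting complex, was at 16.7, 10.03 and 12.4 CPM in rats 1, 2 and 5 and at 26.8 CPM in rat 4 (22.5 to 34.2 CPM in MI). In each of these checkpoint genes rat 4 was inside the MI range and the other 3 rats were under it.

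Genes of the kinetochore and the spindle follow. Cenpf, a kinetochore protein, was at 7.64, 4.71, 16.5 and 8.02 CPM (16 to 18.6 CPM in MI). Kif11, the motor that pushes the spindle poles apart, was at 13.6, 8.94, 23.1 and 10.9 CPM (19.9 to 27.4 CPM in MI), and Tpx2, a spindle assembly factor, was at 16.3, 12.3, 29.9 and 14.0 CPM (24.7 to 37.4 CPM in MI). Aurka, the spindle pole kinase that Tpx2 activates, varied least among treated rats relative to its mean of the 16 mitosis genes, at 14.0, 15.2, 18.6 and 12.8 CPM (14.2 to 23.2 CPM in MI). Rat 2 was thus inside the MI range for Aurka, whereas for Cenpf, Kif11 and Tpx2 only rat 4 was.

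Mki67 was at 40.6, 29.2, 66.7 and 36.4 CPM (54.1 to 77.0 CPM in MI). Cenpe, a kinetochore motor, was at 8.77, 6.89, 15.2 and 8.23 CPM (12.6 to 18.0 CPM in MI). In both genes only rat 4 was inside the MI range. The cytokinesis motors Kif20a and Kif23 were at 13.0, 8.34, 18.3 and 9.42 CPM (16.2 to 22.7 CPM in MI) and at 10.8, 8.34, 16.3 and 7.24 CPM (14.7 to 18.7 CPM in MI). Ube2c was at 9.08, 3.75, 16.9 and 8.23 CPM (12.1 to 24.8 CPM in MI). Birc5, at 7.64, 3.26, 10.1 and 5.06 CPM (6.86 to 13.8 CPM in MI), had rat 1 as well as rat 4 inside the MI range.

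Without rat 4 of the iCarP+/Light+ group, 16 members fell against MI in place of 2, while 1.55% of all genes fell in that fit. These were 13 of the 16 mitosis genes, Ccna2, Ccnb1 and Cdk1, and 0 of the 10 replication genes, for which the median log2 fold change was -0.35 against -1.03 for mitosis genes. Mcm6 did not pass the test in that fit. The smallest adjusted p values were those of Cenpf (-1.32, adjusted p = 0.00464, edgeR) and Ccnb1 (-1.28, adjusted p = 0.00554, edgeR). Rat 4 was singled out by its high levels of these same mitosis genes. Lower values and smaller adjusted p without it follow in part from that choice and are no separate support. Each of the other 11 rats was also left out, without the split by role, and no label sets rat 4 apart. Without MI rat 1, MI rat 5, iCarP+/Light+ rat 2 or iCarP+/Light+ rat 5, 0 members fell, and without Sham rat 3 or MI rat 4, 1 fell. Without iCarP+/Light+ rat 1 or Sham rat 1, 3 fell, and the count stayed at 2 without each of the others. The count also moved with the method, from 2 with edgeR to 7 with limma-voom and 10 with DESeq2. Among all 15101 genes the number that fell moved as well, from 304 with edgeR to 350 with limma-voom and 763 with DESeq2. With total counts alone 22 members and 2722 of all genes fell, and the median of the members was -0.79 against -0.25 for all genes.

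**Figure D4:**
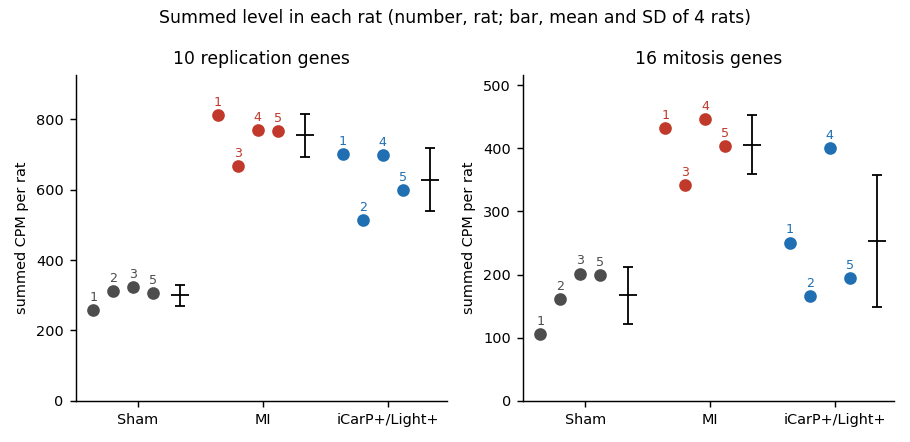
Summed CPM of the 10 replication genes (left) and the 16 mitosis genes (right) in each rat, numbered as labelled, with the mean and SD of 4 rats beside each group; both y axes start at 0. Replication sums of iCarP+/Light+ rats lie between 515 and 701 CPM and above all Sham rats, whereas mitosis sums of rats 1, 2 and 5 lie between 166 and 251 CPM, near Sham (106 to 202 CPM), and rat 4 is at 401 CPM.

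Replication and mitosis genes were set side by side within each rat. The summed CPM of the 16 mitosis genes was 0.510 to 0.580 times that of the 10 replication genes in MI rats. It was 0.358, 0.322 and 0.324 times in iCarP+/Light+ rats 1, 2 and 5 and 0.574 times in rat 4. In Sham rats it ranged from 0.411 to 0.651 times. The ratio in 3 treated rats thus lay below that of the other 9 rats, and in rat 4 it lay within the MI range.

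Ccnd3 was the only member that rose with treatment. It was at 145, 177, 158 and 186 CPM in iCarP+/Light+ rats 1, 2, 4 and 5, all above the highest MI rat (126 CPM). The log2 fold change was 0.50 (SE 0.11, adjusted p = 0.00870, edgeR; exact permutation test, p = 0.0286). With total counts alone it was 0.23, which did not pass the test and lay 0.48 above the median of all genes. The call was also lost without iCarP+/Light+ rat 5, with a log2 fold change of 0.37. Ccnd1 and Ccnd2 had log2 fold changes of -0.10 (SE 0.14) and -0.06 (SE 0.20).

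CDK inhibitors, which hold cyclin-CDK complexes in check, were taken from the longer list of other genes. Cdkn1a, which encodes p21, an inhibitor induced by p53 and by other stress signals, was at 18.1, 28.4, 26.2 and 35.6 CPM in Sham rats 1, 2, 3 and 5 and at 93.0, 76.2, 93.1 and 55.7 CPM in MI rats 1, 3, 4 and 5. In iCarP+/Light+ rats 1, 2, 4 and 5 it was at 174, 283, 245 and 333 CPM. The 3 groups did not overlap, and Cdkn1a rose by 1.55 from Sham to MI and by 1.70 from MI to iCarP+/Light+ (adjusted p = 0.000375, edgeR). Cdkn1b, which encodes p27, fell by 0.86 from Sham to MI and rose by 0.96 (adjusted p = 0.00354, edgeR) with treatment, to 53.0, 83.9, 93.2 and 94.7 CPM in rats 1, 2, 4 and 5. Cdkn1c, which encodes p57, fell by 1.97 from Sham to MI and had a log2 fold change of -0.18 with treatment that did not pass the test. Cdkn2b, which encodes p15, rose by 2.00 from Sham to MI from levels under 0.60 CPM, and its change with treatment was 1.26 (adjusted p = 0.0755, edgeR). Cdkn2c passed the test neither for MI against Sham nor for iCarP+/Light+ against MI, Cdkn2a was too low to be tested and Cdkn2d was not analysed here.

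**Figure D5:**
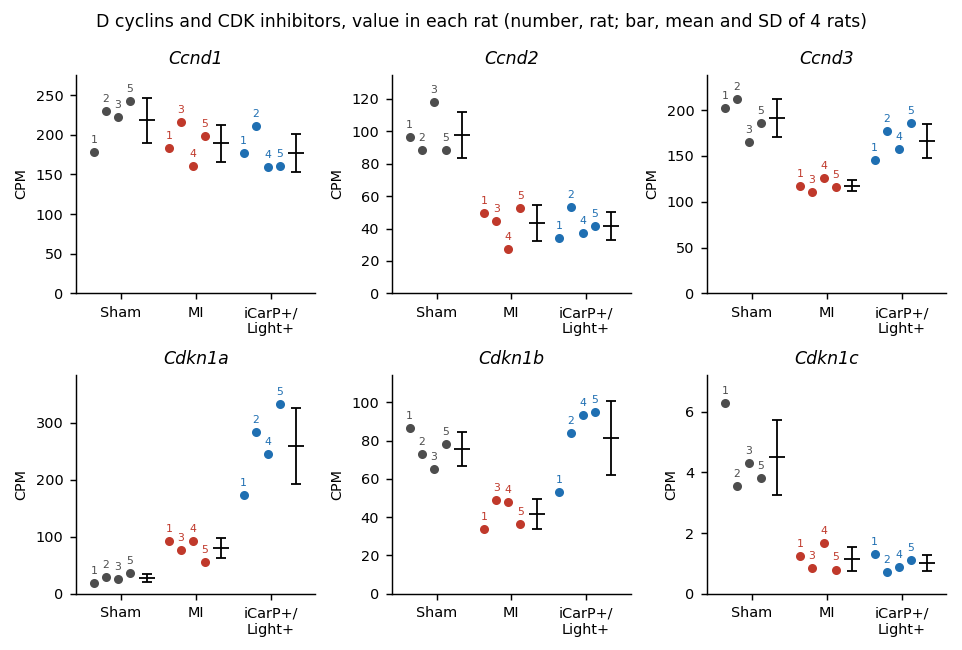
Level in CPM (y axis, from 0) of 3 D cyclins (top row) and 3 CDK inhibitors (bottom row) in each rat, numbered as labelled, with the mean and SD of 4 rats beside each group. Ccnd3 and Cdkn1b are lower in MI than in both other groups without overlap with them, Cdkn1a steps up from Sham to MI to iCarP+/Light+, and Ccnd2 and Cdkn1c are below Sham in both infarcted groups.

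Of the 21 tested genes of the list of CDKs, inhibitors and pocket proteins, 8 rose and 9 fell from Sham to MI, among them Ccng1 (-1.99). Among all genes 30.2% rose and 33.6% fell in that comparison. From MI to iCarP+/Light+ 3 of the 21 rose, Cdkn1a, Cdkn1b and Ccng2 (cyclin G2, linked to cell cycle arrest, 1.25), and 0 fell. Among all genes 11.6% rose and 2.01% fell in this comparison, shares that also apply to the lists that follow. Of 35 other replication genes 0 passed the test in this comparison. Of them 32 were below 0 and 3 above, and of 47 other mitosis genes 43 were below 0 and 4 above, against 48.5% of all genes below 0. At an unadjusted p below 0.05 (edgeR), 13 of the 35 were lower and 1 higher. For the 47 these numbers were 15 and 2, while 7.61% of all genes were lower. Of 47 other mitosis genes Spc24 (-1.07) and Espl1 (-0.71), a kinetochore subunit and the protease separase, fell, and Cks2 (1.37) and Tacc3 (0.55) rose. Of 14 other transcription factors 1, E2f2, rose, by 0.98 from 21.1 to 26.7 CPM in MI rats to 29.7 to 67.4 CPM in iCarP+/Light+ rats. Mybl2 was at 22.2, 14.6, 26.8 and 17.3 CPM in rats 1, 2, 4 and 5, with a log2 fold change of -0.51 (adjusted p = 0.109, edgeR).

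Treated rats were also compared with Sham, a comparison that shares both groups with those above. Of the 36 members 21 rose and 1 (Ccnd2, -1.24) fell, against 33.5% and 33% of all genes. In 13 of the 36 members the lowest treated rat exceeded the highest Sham rat, as in 31.9% of all genes, a share near that of the members. Replication genes rose in 9 of 10 cases with a median log2 fold change of 1.20, again all but Tyms. Among the 16 mitosis genes 6 rose (Aurka, Aurkb, Plk1, Cenpe, Birc5 and Ube2c), a share near that of all genes, and the median was 0.71. Cenpf (-0.02) and Kif20a (0.06) had values near 0.

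Of the cyclins and kinases Ccna2, Ccnb1, Ccne1, Ccne2, Cdk1 and Cdk2 rose against Sham, by 0.33 for Cdk2 to 1.71 for Ccna2. Without iCarP+/Light+ rat 4 the calls of Ccnb1 (0.36, adjusted p = 0.218, edgeR), Cdk1 (0.63, adjusted p = 0.0569, edgeR) and Cdk2 (0.32, adjusted p = 0.0684, edgeR) were lost, as were those of Cenpe (0.46, adjusted p = 0.127, edgeR) and Ube2c (0.71, adjusted p = 0.0898, edgeR). Calls were also lost without Sham rat 1, 2 or 5 for Ccnb1, without iCarP+/Light+ rat 1 or Sham rat 1, 3 or 5 for Cdk2, without Sham rat 1 or 2 for Cenpe and without Sham rat 1 or 3 for Ube2c (edgeR adjusted p between 0.0508 and 0.110). With limma-voom those of Ccnb1 (adjusted p = 0.117) and Ube2c (adjusted p = 0.0864) were lost. Those of Cenpe, Ccnb1 and Cdk2 were lost in a fit of the Sham and iCarP+/Light+ rats only (edgeR adjusted p between 0.0503 and 0.0571), and that of Cdk2 with no filter on low counts (edgeR adjusted p = 0.0521). Ccnd1 (-0.30) and Ccnd3 (-0.20) did not pass the test, and with total counts alone they were 0.01 and 0.10. Foxm1 (0.44, adjusted p = 0.180, edgeR) did not pass either. The number of members that rose was 16 without iCarP+/Light+ rat 4 and 27 without iCarP+/Light+ rat 2, while 4809 and 4898 of all genes rose in these fits. Other lists gave 31 of 35 replication genes and 25 of 47 mitosis genes higher than in Sham, against 33.5% of all genes. Orc1, Orc6 and Cdc6, which load the MCM helicase on DNA, were higher by 2.19, 1.77 and 1.71, and Cks2, Tacc3 and Cenpn by 3.26, 2.55 and 2.17. Cdkn2b and Cdkn1a were higher by 3.26 each, and the value of Cdkn1c was -2.15. Among transcription factors E2f2 and Mybl2 were higher by 2.71 and 2.40, and Lin52, a MuvB subunit, was at -1.68.

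Cell type markers moved with the groups. Summed CPM of 17 leukocyte markers was 371 to 594 in Sham rats, 4304 to 7434 in untreated MI rats and 6278 to 11111 after treatment, and 12 of the 17 rose and 0 fell from Sham to MI (30.2% and 33.6% of all genes). With treatment 6 of them rose and 2 fell (11.6% and 2.01% of all genes). Summed CPM of 11 cardiomyocyte markers was between 45610 and 50113 in Sham rats, between 3578 and 7777 in MI rats and between 3582 and 8754 after treatment. Heart muscle was thus present in every sample, and 9 of the 11 markers fell from Sham to MI.

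Fibroblast markers (12 genes) summed to between 8766 and 10842 CPM in Sham, between 2850 and 3327 in MI and 2634, 2953, 3206 and 1496 in iCarP+/Light+ rats 1, 2, 4 and 5. Endothelial markers (10 genes) summed to between 2129 and 2376 CPM in Sham, 1016 and 1570 in MI and 1351 and 1538 in treated rats, and Cldn5 was at 0 in every rat. Pericyte and smooth muscle markers (8 genes) summed to 1029 to 1146, 371 to 610 and 359 to 497 CPM. Erythroid markers (10 genes) summed to 8131 to 10827, 2585 to 7090 and 6342 to 17733 CPM. Rat 4 thus had the highest fibroblast sum and the lowest endothelial sum (1351 CPM) of the treated rats. Its leukocyte, erythroid, cardiomyocyte, and pericyte and smooth muscle sums were neither the highest nor the lowest.

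Markers of granulocyte precursors, a dividing cell type of the bone marrow, were looked at as well. Of these 11 markers 5 were tested (Elane, Camp, Cebpe, Kit and Cd34). From Sham to MI 3 of the 5 rose and 1 fell (30.2% and 33.6% of all genes). With treatment 2 rose and 0 fell (11.6% and 2.01% of all genes). Their summed CPM lay between 319 and 371 for Sham, between 104 and 161 for MI and between 178 and 215 for treated rats. In iCarP+/Light+ rats 1, 2, 4 and 5 the sum was 178, 209, 215 and 178 CPM, highest in rat 4, whereas the mean log2 level of the same markers was highest in rat 2. Most of the Sham sum was Cd34, which endothelial cells also express and which was at 282 CPM or more in Sham rats and at 88.8 CPM or less in MI rats. Elane, the neutrophil elastase, was at 0 to 0.076 CPM in Sham, 0.70 to 2.01 CPM in MI and 10.2 to 32.6 CPM in treated rats. Camp was at 0 to 0.22, 0.43 to 1.85 and 22.7 to 46.3 CPM in the same groups. Cebpe, a transcription factor of these cells, was at 0.37 to 0.53, 7.44 to 14.0 and 7.14 to 13.3 CPM. Ms4a3 was at 0 in every rat, and Mpo, Prtn3, Ctsg, Ltf and Ngp were too low to be tested. The part of these cell types in the change of the members was not tested. In whole tissue, more cells that express a gene and more RNA per cell cannot be told apart.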

How the data were processed

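Total RNA of LV tissue from 12 rats was analysed. The authors deposited whole-number read counts per gene for each rat, not normalized; the submitters' processing notes name HISAT2, featureCounts and the build rn6, and the strand setting and annotation release are not given in the sources used here. The 12 count columns were matched to rats by name and grouped by the sample titles.

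The quasi-likelihood test of edgeR 4.0.16 (R 4.3.3) was used on all 12 rats together, with a mean for each group, TMM scaling, edgeR's filterByExpr rule for low counts (minimum count 10), and Benjamini-Hochberg adjustment over 15101 genes and a threshold of 0.05. SE was taken from the fold change and its F statistic. Exact permutation tests compared log2 CPM (prior count 2) over the 70 arrangements of 4 rats against 4. Alternatives were DESeq2 1.42.0, limma 3.58.1 (limma-voom), other scalings, filters and gene sets, a replicate block and each rat left out. Before use, edgeR, DESeq2 and limma-voom were tried on simulated data with few changed genes, balanced up and down. That setting cannot judge the choice of scaling for these data, where many genes differed between groups. The floor of 3 counts covers counting error only. Between the 18 pairs of rats of one group a chi-square statistic of their counts lay between 14.0 and 111 per gene, far above sampling noise, so no library was a copy.

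Members and lists were chosen with earlier results of these data known. All members are accounted for by role. Of the other lists, the text names the 3 largest changes per list and comparison among genes past the threshold and the CDK inhibitors, and Pola2, and Tacc3 and Mybl2 in the comparison of iCarP+/Light+ with MI, were named after their values were seen. Upstream sequences come from a RefSeq table on GRCr8, a different build from the counts, and were matched by symbol. Plots were drawn with matplotlib 3.10.9.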

Additional observations from a re-analysis of the deposited data

Results flagged for a closer look

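In 4 of the 108 groups of 4 rats (36 members in 3 groups) 1 rat lay far from the other 3, where chance gives about 5.4 such groups. Gaps below were computed on log2 CPM (prior count 2), not on the CPM printed beside them. Sham rat 1 was the low rat in 3 of the 4 groups, all mitosis genes. Its level of Tpx2 was 6.29 CPM against 12.2 to 13.2 CPM in the other Sham rats, a gap of 0.887 of the range. Its level of Bub1b was 2.75 CPM against 6.22 to 7.10 CPM, a gap of 0.860 of the range, and its level of Aurkb was 3.83 CPM against 6.83 to 7.67 CPM, a gap of 0.833 of the range. The fourth was Pcna in iCarP+/Light+ rat 2, at 124 CPM against 169.8 to 179 CPM in the other treated rats, a gap of 0.863 of the range.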

How the results depend on the processing

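Counts of members past the threshold were most stable for MI against Sham and least stable for iCarP+/Light+ against MI. From Sham to MI, 30 to 32 members rose when each rat was left out in turn, and the number that fell was 1 in place of 2 with total counts alone and with a fold change of 2 or more. With total counts alone 2776 of all genes fell, against 5080 in the main fit. From MI to iCarP+/Light+, the number that fell (2) was 22 with total counts alone, 10 with DESeq2, 7 with limma-voom, 0 with the replicate block, 0 with a fold change of 2 or more and 0 to 16 with each rat left out; the number that rose (1) was 0 with total counts alone, 0 with the replicate block, 0 with a fold change of 2 or more and 0 to 1 with each rat left out. Among all genes 304 fell in the main fit, 2722 with total counts alone, 763 with DESeq2, 350 with limma-voom and 141 with the replicate block. With 1 rat left out, between 157 and 438 of all genes fell. All genes that rose numbered 1747 in the main fit, 1204 with total counts alone and 1157 with the replicate block. The causes of these moves were not tested, except that a fold threshold removes calls by construction. From Sham to iCarP+/Light+, 13 members in place of 21 rose with a fold change of 2 or more and 28 with total counts alone, and 16 to 27 rose and 1 to 2 fell with each rat left out. With total counts alone 6664 of all genes rose in that comparison, against 5057 in the main fit. Same-numbered rats are different animals, and their deviations from the group means had correlations between -0.150 and 0.065 over 9 pairs, so the replicate block rests on a shared number only; with it the calls of Cenpf, Kif20a and Kif23 for MI against Sham and of Plk1, Cenpe, Birc5, Ube2c, Ccnb1 and Cdk2 for iCarP+/Light+ against Sham were also not made.

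Signs turned in the following cases. With total counts alone Ccnd1 was 0.38 for MI against Sham, and for iCarP+/Light+ against Sham Ccnd1 was 0.011, Ccnd3 0.10 and Cenpf 0.31. In that last comparison Tyms was -0.00263 with protein-coding genes only and -0.00621 without mitochondrial genes, Cenpf was 0.00268 with DESeq2 size factors, 0.00328 with DESeq2 and 0.00524 with a minimum of 10 counts in each sample, and Kif20a was -0.13 with the replicate block. With each rat left out, log2 fold changes against MI ranged from -0.17 to 0.084 for Pcna, from -0.28 to 0.20 for Rrm2 and from -0.23 to 0.039 for Ccnd2. Those of iCarP+/Light+ against Sham ranged from -0.11 to 0.20 for Tyms, from -0.45 to 0.21 for Cenpf, from -0.20 to 0.22 for Kif20a and from -0.047 to 0.40 for Kif23. The lowest level of a member in any rat (1.45 CPM, Birc5 in Sham rat 1) came from 20 counts, above the floor of 3 counts. The parts of depth and of the number of rats in the precision were not separated.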
